A study of Homo sapiens with 10 samples.

Results

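The experiment described here asks what the BET bromodomain inhibitor JQ1 did to newly made and to total mRNA in K562 cells, a human line established from chronic myeloid leukemia that keeps erythroid traits. It consists of 4 of the 10 libraries of the series, 2 from cells given 1 µM JQ1 and 2 from cells given the solvent DMSO, and of all 59204 human genes in the count tables. Members were chosen by treatment label alone. Cells of every group were exposed for 2 h, with 100 µM 4-thiouridine in the last 1 h, so the DMSO cells carried the label too. The other libraries came from cells given 1 µM A-485, which inhibits the acetyltransferases CBP and p300, 1 µM AZ-5576, which inhibits CDK9, or 1 µg/mL actinomycin D. All came from 1 cell line with no genetic change, and the labels do not say whether replicates were separate cultures. The p-values therefore measure the spread between these libraries, which may be technical.

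BET proteins, BRD2 and BRD3 among them, bind acetylated histone tails at promoters and enhancers and help recruit P-TEFb, the CDK9-containing kinase that releases paused RNA polymerase II. JQ1 occupies their acetyl-lysine pocket and takes them off chromatin. In leukemia cells, genes driven by large enhancers, MYC among them, are known to be sensitive to it, while HEXIM1, which holds P-TEFb inactive in the 7SK particle, and histone genes are known to rise. 4-thiouridine enters RNA during synthesis and is read, after alkylation, as T-to-C changes. Labelled counts are reads with such changes and stand for RNA made in the label hour, and total counts are all reads and stand for the mRNA pool. The label hour was the second hour of drug exposure.

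Counts were scaled to Drosophila RNA that had been added to the purified RNA. The 2 DMSO libraries held 448401 and 434411 labelled counts against 1895506 and 1817677 spike-in counts. The JQ1 libraries held 342847 and 322771 labelled counts, with larger spike-in totals of 2212752 and 2112838, so equal raw counts mean a lower scaled level with JQ1. Scaled labelled RNA was 238 ± 1.72 counts per 1000 spike-in counts with DMSO and 154 ± 1.54 with JQ1 (SD, n = 2 each), or 64.7% of DMSO. For total RNA the values were 8.59 ± 0.571 and 7.82 ± 0.357 counts per spike-in count, or 91.1%. A permutation of 2 against 2 libraries can give no two-sided p below 0.33. The spike-in followed extraction and was given as 5%, so scaled levels are relative to the extracted RNA. They cannot show a change in cell number or in RNA per cell, and neither was measured. Uptake of the label was not measured either. All 12 erythroid markers were detected, at a summed level of 4797 and 4950 CPM (of total human counts) for DMSO and at 4513 and 5124 for JQ1. Of 25 markers of other lineages, 6 had no counts in any of the 4 libraries, 12 reached 10 counts, and their sum was 132 to 145 CPM. The largest of those was EPCAM, an epithelial adhesion molecule, with 1003 and 1116 total counts in DMSO and 1071 and 1084 with JQ1.

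In labelled RNA, JQ1 lowered 2286 of 7996 tested genes (28.6%) and raised 101 (1.26%) at an adjusted p under 0.05 (edgeR quasi-likelihood test, Benjamini-Hochberg). The median change over all tested genes was -0.85 on the log2 scale, 84.2% of genes lay below 0, and 3456 (43.2%) lay below -1. Scaling on the human counts themselves (TMM), which sets the typical gene near 0, moved the median by 0.83. On that scale 415 genes (5.19%) were lower and 444 (5.55%) higher, the 415 being within the 2286 and all 101 rises being among the 444. Fewer genes passed without single libraries: without DMSO replicate 1 there were 1143 lower and 51 higher, and without DMSO replicate 2 there were 1049 lower and 51 higher. Rises numbered 56 without JQ1 replicate 1 and 61 without JQ1 replicate 2. In total RNA 1071 of 14572 genes (7.35%) fell and 122 (0.837%) rose, around a median of -0.19. TMM moved that median by 0.20 and gave 288 lower (1.98%) and 214 higher (1.47%), and human totals as library size gave 420 lower. A block on the replicate numbers, whose pairing is not stated, gave 1972 lower and 158 higher. Leaving out DMSO replicate 2 left 277 total falls and 64 rises, and leaving out DMSO replicate 1 left 68 rises.

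**Figure D1:**
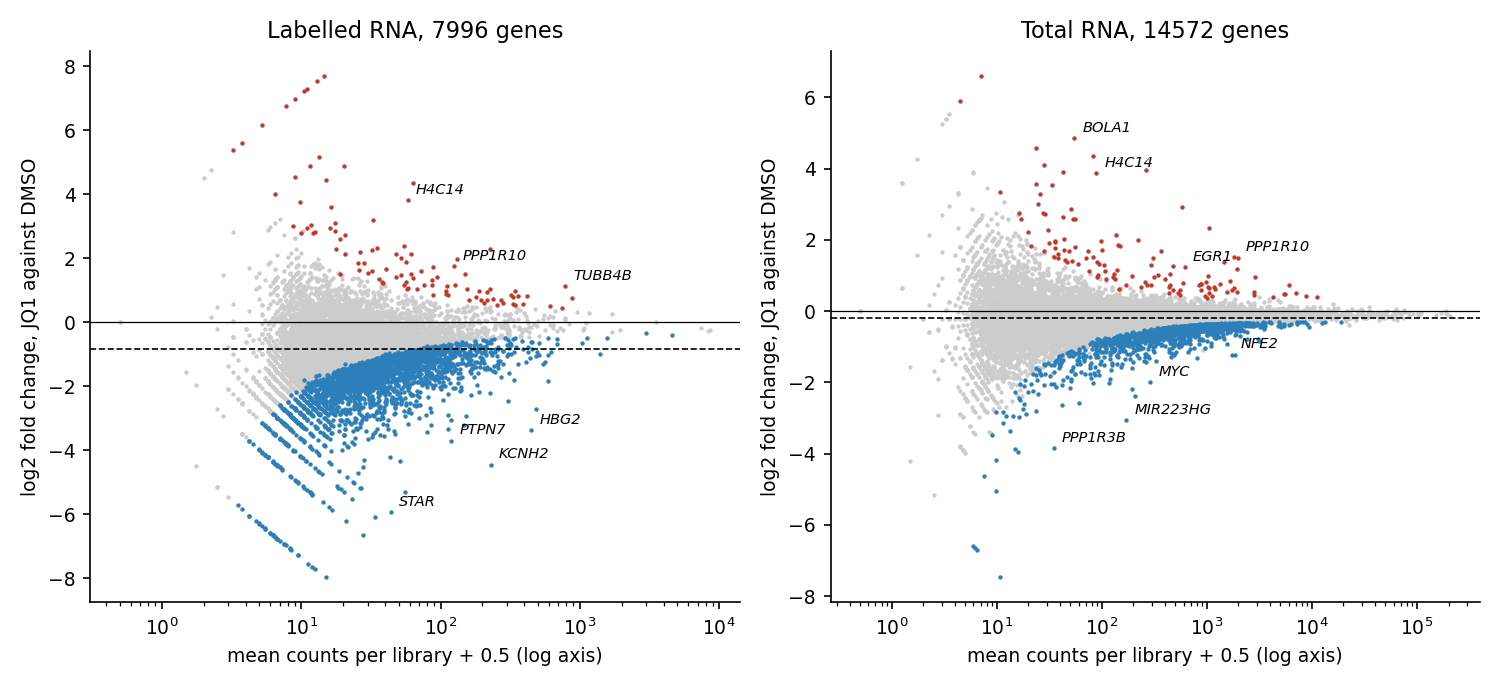
Each point is a gene, with its mean counts over the 4 libraries on a log x axis and its fitted log2 fold change (JQ1 against DMSO, spike-in scale) on the y axis, for labelled RNA (left) and total RNA (right). Blue points passed the test as lower, red as higher, grey did not pass, and the dashed line is the median of all genes (-0.85 labelled, -0.19 total). The labelled cloud sits below 0, whereas the total cloud sits near 0 with a sparse set of called genes on either side.

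Of the 2286 genes lower in labelled RNA, 688 (30.1%) also passed as lower in total RNA, and these were 73.5% of the 936 total falls that could be tested in both measures. Of the 101 labelled rises, 57 (56.4%) also passed as higher in total RNA. A single gene was lower in labelled and higher in total RNA, RPL34P6, a processed pseudogene of a ribosomal protein gene (chr1:200863808-200864152, plus strand). Its labelled counts were 17 and 12 in DMSO and 0 and 4 with JQ1, and its total counts 136 and 103 against 1109 and 988. It was named after its values were seen, and reads of pseudogenes are uncertain, since near-identical copies may take them. Of the 122 total rises, 74 were protein-coding genes and 17 pseudogenes. Labelled counts are part of the total counts of the same libraries, so these overlaps are not independent. A further 135 total falls and 30 total rises had too few labelled counts to test.

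The deepest labelled falls included KCNH2, which encodes a voltage-gated potassium channel (chr7:150944961-150978315, minus strand, GENCODE 29 on hg38). Its labelled counts were 435 and 432 in DMSO and 24 and 22 with JQ1, a log2 change of -4.45 ± 0.31 (± SE of the log2 change here and throughout, edgeR adjusted p = 1.93e-48). Its total counts were 10557 and 11531 against 10658 and 10933 (-0.25 ± 0.10, adjusted p = 0.0928). The groups were thus far apart in new RNA. In total RNA they lay close, at 5569 and 6344 counts per 1000000 spike-in counts in DMSO and 4817 and 5175 with JQ1, without overlap on that scale. STAR, which moves cholesterol into mitochondria, had labelled counts of 84 and 87 in DMSO and 1 and 2 with JQ1 (-5.93 ± 1.01), beside 2638 and 2959 against 2711 and 2761 total counts. NOSTRIN, an adaptor in nitric oxide synthase trafficking, went from 56 and 76 labelled counts to 1 and 1 (-6.09 ± 1.21). Both lost nearly all detectable new RNA. For PTPN7, a blood cell tyrosine phosphatase, labelled counts were 229 and 209 in DMSO and 18 and 21 with JQ1 (-3.70 ± 0.35), and total RNA fell by 0.79 on the log2 scale. ZMYND8, a reader of acetylated histones, had 208 and 210 labelled counts against 28 and 30 (-3.06 ± 0.31) and 2857 and 3456 against 3341 and 3519 total counts. In EPCAM, singled out after its values were seen, labelled counts were 31 and 27 in DMSO and 0 and 0 with JQ1. With 3 counts allowed over the JQ1 group, that is at least 22.5-fold lower.

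Many erythroid and megakaryocytic transcription factors fell. Of 28 members tested in labelled RNA, 18 were lower (64.3%, against 28.6% of all genes) and none higher. Their median was -1.70 against -0.85 for all genes. In total RNA 19 of 32 were lower (59.4%, against 7.35%) and none higher, with a median of -0.54 against -0.19. On the TMM scale 11 and 12 members remained lower and none was higher. NFE2, the erythroid partner of small MAF proteins, had 270 and 249 labelled counts in DMSO and 34 and 31 with JQ1 (-3.21 ± 0.32, edgeR adjusted p = 1.69e-21). Its total counts were 2312 and 2335 against 1251 and 1076 (-1.22 ± 0.11, adjusted p = 6.42e-10), with no overlap in either measure. TAL1, a master factor of blood formation, had 81 and 105 labelled counts against 20 and 18 (-2.51 ± 0.46), and its total RNA fell by 0.59. Its partner LMO2, a bridging protein without DNA contact, had 75 and 57 against 8 and 5 (-3.54 ± 0.62) and fell by 0.99 in total RNA. LYL1, a close relative of TAL1, had 131 and 68 labelled counts against 16 and 19 (-2.71 ± 0.47). ZBTB7A, a repressor of fetal globin, had 755 and 716 against 418 and 283 (-1.29 ± 0.18), a fall that did not pass on the TMM scale (-0.46) in labelled RNA but did in total RNA.

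In some factors the size of the fall, or the call itself, depended on single libraries. MYB, which keeps blood progenitors dividing, had labelled counts of 98 and 106 in DMSO and 18 and 8 with JQ1 (-3.19 ± 0.49, and -3.84 without JQ1 replicate 1). KLF1, the activator of adult erythroid genes, had 58 and 56 against 5 and 12 (-2.94 ± 0.61, and -3.73 without JQ1 replicate 2). For GFI1B, a repressor needed in erythroid and platelet lineages, the counts were 57 and 47 against 0 and 5 (-4.52 ± 0.89, and -3.53 without JQ1 replicate 1). Without JQ1 replicate 2 the fitted value was -8.81, which is set against a single library at 0 counts, depends on the prior count and is no bound. All 3 remained called as lower whichever library was left out, and in total RNA they fell by 0.56, 0.75 and 1.06. GATA1, the central erythroid factor, had labelled counts of 51 and 34 against 10 and 14 (-2.02 ± 0.61, edgeR adjusted p = 0.00515). That call was lost without JQ1 replicate 1 (adjusted p = 0.0592) and without DMSO replicate 1 (adjusted p = 0.154). Its total RNA differed by -0.43 ± 0.10, a call lost without DMSO replicate 2 (adjusted p = 0.156). GATA2, its counterpart in progenitors, had similar changes in both measures: labelled counts were 347 and 339 against 236 and 197 (-0.89 ± 0.22) and total counts 3669 and 3855 against 2668 and 2264 (-0.83 ± 0.10). Its labelled fall was close to the median gene, and on the TMM scale it was -0.06 and did not pass.

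MYC, the growth-promoting transcription factor, had 109 and 108 labelled counts in DMSO and 40 and 6 with JQ1 (-2.46 ± 0.42, edgeR adjusted p = 1.69e-07). The JQ1 libraries differed widely, and the change was -4.33 without JQ1 replicate 1 and -1.69 without JQ1 replicate 2. Its total counts were closer, at 481 and 402 against 132 and 128 (-1.98 ± 0.19, adjusted p = 2.03e-09).

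New RNA of the fetal globins HBG1 and HBG2 fell, while their total RNA did not pass (-0.11 ± 0.11 and -0.20 ± 0.10). HBG2 (chr11:5253190-5505605, minus strand) had 850 and 762 labelled counts in DMSO and 82 and 98 with JQ1 (-3.38 ± 0.22, edgeR adjusted p = 1.93e-48), with total counts of 20126 and 20688 against 19938 and 21513. HBG1 (chr11:5248079-5249859, minus strand) had 808 and 823 labelled counts against 129 and 161 (-2.71 ± 0.20). These copies are nearly identical, so the split of reads between them is uncertain, though both fell. HBZ, the embryonic alpha-type globin, had 24 and 22 labelled counts against 1 and 2 (-4.04 ± 1.28) beside 6572 and 8360 against 6809 and 10592 total counts. The embryonic beta-type globin HBE1, added after its values were seen, went the other way in labelled counts, at 43 and 40 in DMSO and 84 and 60 with JQ1. It did not pass on the spike-in scale (0.57 ± 0.40, edgeR adjusted p = 0.267) but passed as higher on the TMM scale (1.40), and its annotated span overlaps that of HBG2. Of globins, heme enzymes and red cell membrane proteins, 11 of 22 tested were lower in labelled RNA (50%, against 28.6% of all genes). None was higher (TMM 8 lower, 4 higher). In total RNA 2 of 44 were lower (4.55%, against 7.35% of all genes). ANK1, which anchors the red cell skeleton, had 204 and 212 labelled counts against 84 and 65 (-1.70 ± 0.25). SLC25A37, the mitochondrial iron importer, had 170 and 143 against 57 and 35 (-1.99 ± 0.33). Neither passed in total RNA (-0.02 and -0.24). SLC25A38, the mitochondrial glycine carrier of heme synthesis, fell in total RNA, from 911 and 878 counts to 644 and 649 (-0.69 ± 0.12). Its labelled call (-1.56) was lost without DMSO replicate 1.

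**Figure D2:**
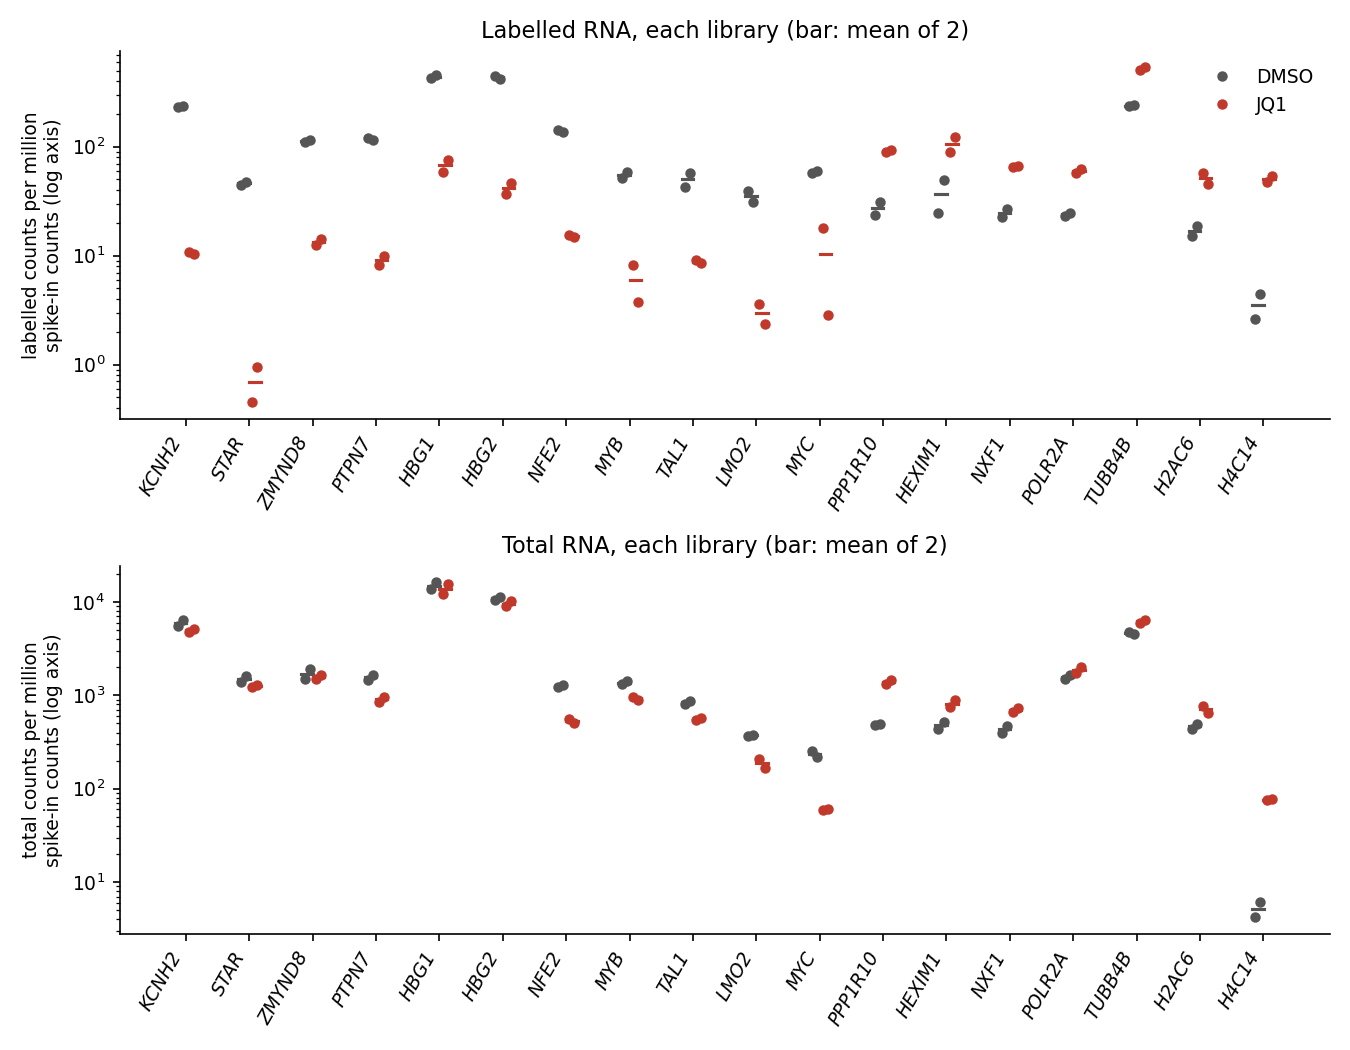
Dots are single libraries and bars the mean of 2, in labelled (top) or total (bottom) counts per 1000000 spike-in counts on a log axis, for DMSO (grey) and JQ1 (red). KCNH2 fell from 229 and 238 to 10.8 and 10.4 labelled counts per 1000000 spike-in counts with little change in total RNA, whereas PPP1R10 and H4C14 rose in both panels.

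Rises were few, and of the gene lists the replication-dependent histones had the highest share of them. Of the 68 listed, 17 had enough counts to be tested in labelled RNA. Of those 17, 12 rose (70.6%, against 1.26% of all genes) and none fell, with a median of 2.14. The count filter can be met by the JQ1 libraries alone, which favours members that rise. The share and median therefore hold for the tested members only. In total RNA 12 of 25 rose and none fell, with a median of 0.75. These genes supply histones during DNA replication, and their mRNAs usually end in a stem-loop without a poly(A) tail, while the library kit primes on poly(A), so the reads come from the tailed part of their RNA. H4C14 (chr1:149832659-149839767, plus strand) had 5 and 8 labelled counts in DMSO and 104 and 113 with JQ1 (3.82 ± 0.59, edgeR adjusted p = 2.37e-10), and 8 and 11 against 166 and 164 total counts. Its copy H4C15 had 6 and 4 against 119 and 124 labelled counts (4.35 ± 0.63), and reads may be split between the pair. H2AC6 had 29 and 34 labelled counts against 127 and 97 (1.60 ± 0.39), and 837 and 892 against 1712 and 1383 total counts. H2BC21 had 24 and 12 against 89 and 80 labelled counts (2.01 ± 0.49), a call lost without DMSO replicate 2 (edgeR adjusted p = 0.0655). H2AC11 had 24 and 7 against 79 and 80 (2.14 ± 0.50). It came to 3.23 without DMSO replicate 1, and its call was lost without DMSO replicate 2 (adjusted p = 0.0855). For H3C10 the labelled counts were 24 and 47 against 146 and 133 (1.74 ± 0.37, and 2.34 without DMSO replicate 2), and for H2BC5 they were 28 and 12 against 126 and 78 (2.12 ± 0.45, and 2.82 without DMSO replicate 1). In each of these the JQ1 libraries lay above both DMSO libraries, in both measures. Of 8 replication-independent histone variants tested in labelled RNA, 1 was lower and 2 higher (TMM 0 and 4), and none of 9 was called in total RNA on the spike-in scale (TMM 2 higher).

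Around the histone genes of chromosome 6 (chr6:25626132-27993843), 6 of 9 histones tested in labelled RNA rose, while of the 10 other genes 6 were lower and 2 higher. On chromosome 1 (chr1:149682689-149987916) 5 of 7 histones rose, with 1 rise and no fall among 4 other genes. The latter was BOLA1, a mitochondrial iron-sulfur protein gene (chr1:149887890-149900798, plus strand) next to H2BC21 (chr1:149884459-149886652, minus strand), named after its values were seen. Its labelled counts were 0 and 0 in DMSO and 27 and 29 with JQ1, at least 16-fold higher with 3 counts allowed over the DMSO group. In total RNA it had 1 and 5 against 99 and 111 counts (4.85 ± 0.85, 4.11 without DMSO replicate 1 and 6.37 without DMSO replicate 2). The strand setting of the authors' counting is not given in the sources used here, so reads from overlapping or opposite-strand neighbours cannot be told apart.

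Among regulators of RNA polymerase II, PPP1R10, a phosphatase subunit that acts in transcription termination (chr6:30600400-30618612, minus strand), had 45 and 56 labelled counts in DMSO and 199 and 197 with JQ1 (1.75 ± 0.30, edgeR adjusted p = 3.87e-07). Its total counts were 920 and 900 against 2960 and 3055 (1.51 ± 0.11, adjusted p = 1.31e-12). HEXIM1 (chr17:45148502-45152101, plus strand) had 47 and 90 labelled counts against 198 and 260 (1.52 ± 0.29) and 833 and 952 against 1648 and 1872 total counts (0.76 ± 0.13). POLR2A, the largest polymerase subunit, had 44 and 45 labelled counts against 126 and 133 (1.32 ± 0.34), but its total RNA did not pass on the spike-in scale (0.25 ± 0.11, adjusted p = 0.149). The remaining members of these lists mostly did not rise. Of 28 genes of BET proteins, P-TEFb and pause release, 6 were lower (21.4%, against 28.6% of all genes) and 1 higher in labelled RNA (TMM 1 and 4). Of 43 genes of RNA polymerase II, Mediator and acetyltransferases, 15 were lower (34.9%, near the share of all genes) and 1 higher (TMM 1 and 3). MED24, a Mediator subunit, had 81 and 81 labelled counts against 13 and 23 (-2.38 ± 0.40). LARP7, which protects 7SK RNA, had 70 and 51 against 21 and 20 (-1.77 ± 0.43). Its total RNA differed by -0.40, a call lost without JQ1 replicate 2 and without either DMSO library.

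BRD2, one of the proteins that JQ1 binds, had 807 and 754 labelled counts against 1173 and 1085 (0.31 ± 0.16, edgeR adjusted p = 0.13), and 4293 and 4203 against 6690 and 7109 total counts (0.48 ± 0.10, adjusted p = 0.00164). On the TMM scale its labelled rise passed as well. BRD3 did not pass in either measure (labelled -0.79 ± 0.51, total -0.19).

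Other rises came from varied pathways. NXF1, the main mRNA export receptor, had 43 and 49 labelled counts against 144 and 140 (1.40 ± 0.32) and 756 and 856 against 1475 and 1551 total counts. TUBB4B, a beta-tubulin, had 446 and 437 against 1127 and 1126 (1.13 ± 0.17, edgeR adjusted p = 5.5e-09). DHRS2, a short-chain dehydrogenase, had 15 and 15 against 117 and 68 (2.39 ± 0.47), and DALRD3, a cofactor of tRNA methylation, had 6 and 5 against 61 and 58 (3.19 ± 0.67). In all 4, replicates within a group lay closer together than the groups did. BTG1, an antiproliferative gene, had 40 and 43 labelled counts against 113 and 107 (1.18 ± 0.38), but its labelled call was lost without either DMSO library. TUBB4B also rose in total RNA by 0.41, a call lost without DMSO replicate 2 (adjusted p = 0.0696).

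Of 31 heat shock and chaperone genes tested in labelled RNA, 10 were lower (32.3%, near the 28.6% of all genes) and 3 higher (9.68%, against 1.26%), with 1 and 8 on the TMM scale. The inducible HSP70 genes HSPA1A and HSPA1B, near-identical copies, had 304 and 239 against 627 and 499 labelled counts (0.83 ± 0.20) and 158 and 111 against 322 and 276 (0.93 ± 0.24). Both labelled calls were lost without DMSO replicate 2. DNAJB1, their co-chaperone, rose in total RNA from 1271 and 1267 to 2185 and 2460 counts (0.65 ± 0.11). HSPB1, the small heat shock protein, moved the other way in new RNA, from 503 and 514 labelled counts to 154 and 182 (-1.82 ± 0.21), with total RNA at 0.06 ± 0.13.

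Promoters of the rising genes were examined for the TATA box, which positions RNA polymerase II at some start sites. The 100 bases before the start are shown for 8 genes that rose in labelled RNA and 3 factor genes that fell, from RefSeq on GRCh38.p14, 5′ to 3′ along the gene. These genes, and the window used below, were chosen after the values were seen, and promoters of HBG1, HBG2, NFE2, LMO2 and MYC were not used here. Capitals mark the TATA motif TATAAA, the CCAAT box and AGATAA, 1 form of the GATA factor motif, on either strand. ATTGG is thus CCAAT on the other strand, and in H2AC11 the longest run of capitals holds the TATA motif on both. The rises are H2BC21, chr1:149886683-149886782 (- strand), H2AC11, chr6:27132943-27133042 (+ strand), H3C10, chr6:27809951-27810050 (+ strand), PPP1R10, chr6:30617244-30617343 (- strand), HEXIM1, chr17:45148375-45148474 (+ strand), DHRS2, chr14:23630015-23630114 (+ strand), NXF1, chr11:62805441-62805540 (- strand) and BTG1, chr12:92145847-92145946 (- strand).
H2BC21: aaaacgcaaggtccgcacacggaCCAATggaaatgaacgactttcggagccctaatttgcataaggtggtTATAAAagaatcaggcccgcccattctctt
H2AC11: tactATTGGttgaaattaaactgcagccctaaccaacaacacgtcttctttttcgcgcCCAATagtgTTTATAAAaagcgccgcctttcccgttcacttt
H3C10: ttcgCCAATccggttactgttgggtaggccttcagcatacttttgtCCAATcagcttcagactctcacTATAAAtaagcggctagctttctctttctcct
PPP1R10: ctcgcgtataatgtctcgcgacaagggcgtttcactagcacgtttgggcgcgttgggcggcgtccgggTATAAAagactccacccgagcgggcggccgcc
HEXIM1: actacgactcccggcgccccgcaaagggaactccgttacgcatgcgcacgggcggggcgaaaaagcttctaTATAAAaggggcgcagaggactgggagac
DHRS2: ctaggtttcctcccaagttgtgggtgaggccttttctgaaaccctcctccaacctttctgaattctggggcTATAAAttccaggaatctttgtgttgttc
NXF1: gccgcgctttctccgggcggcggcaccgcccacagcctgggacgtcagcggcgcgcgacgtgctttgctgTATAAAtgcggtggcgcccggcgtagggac
BTG1: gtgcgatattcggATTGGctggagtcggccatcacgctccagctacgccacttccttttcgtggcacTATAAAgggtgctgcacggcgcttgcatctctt
The falls are KLF1, chr19:12887202-12887301 (- strand), LYL1, chr19:13102859-13102958 (- strand) and GATA2, chr3:128493202-128493301 (- strand).
KLF1: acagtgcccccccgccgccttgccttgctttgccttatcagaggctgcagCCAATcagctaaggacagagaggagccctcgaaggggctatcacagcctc
LYL1: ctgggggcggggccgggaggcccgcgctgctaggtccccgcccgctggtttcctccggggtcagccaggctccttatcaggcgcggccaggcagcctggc
GATA2: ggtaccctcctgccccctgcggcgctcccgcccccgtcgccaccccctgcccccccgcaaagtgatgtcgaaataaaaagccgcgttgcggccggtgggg
The 8 rises are shown because they hold TATAAA near the start, where it began 29 to 33 bases before it, so they illustrate the motif and say nothing of how common it is among rises. The 3 falls are promoters without it and serve no comparison. H2BC21, BTG1 and KLF1 each held 1 CCAAT and H2AC11 and H3C10 held 2, while AGATAA occurred in none. Other forms of the GATA motif were not marked or counted. KLF1 and LYL1 hold TTATCA, which is TGATAA on the other strand.

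Across all genes with a RefSeq promoter, TATAAA on the gene's strand, beginning 35 to 25 bases before the start, was present in 657 of 27305 promoters (2.41%) and in 101 of the 6161 of genes tested in labelled RNA (1.64%). It was present in 25 of 73 promoters of labelled rises (34.2%) and in 15 of 1826 of labelled falls (0.821%). Without the listed histones, 18 of 61 rises held it (29.5%), against 1.5% of tested genes. In total RNA 21 of 72 rises (29.2%) and 0.845% of falls held it. On the TMM scale the share among labelled rises was 14.6% of 322 promoters and among total rises 23.1% of 143. In the full window of 250 bases before to 50 after the start, on both strands, TATAAA was in 12% of all promoters, 5.11% of tested ones, 39.7% of labelled rises and 4.33% of labelled falls. CCAAT was in 35.7%, 39.1%, 63.0% and 34.9% of the same 4 sets. AGATAA was in 10.5%, 4.09%, 8.22% and 4.71%, and CACGTG, the E-box bound by MYC among others, in 7.43%, 11.3%, 6.85% and 13.4%. A match describes the letters in the window and shows neither binding nor a cause.

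**Figure D3:**
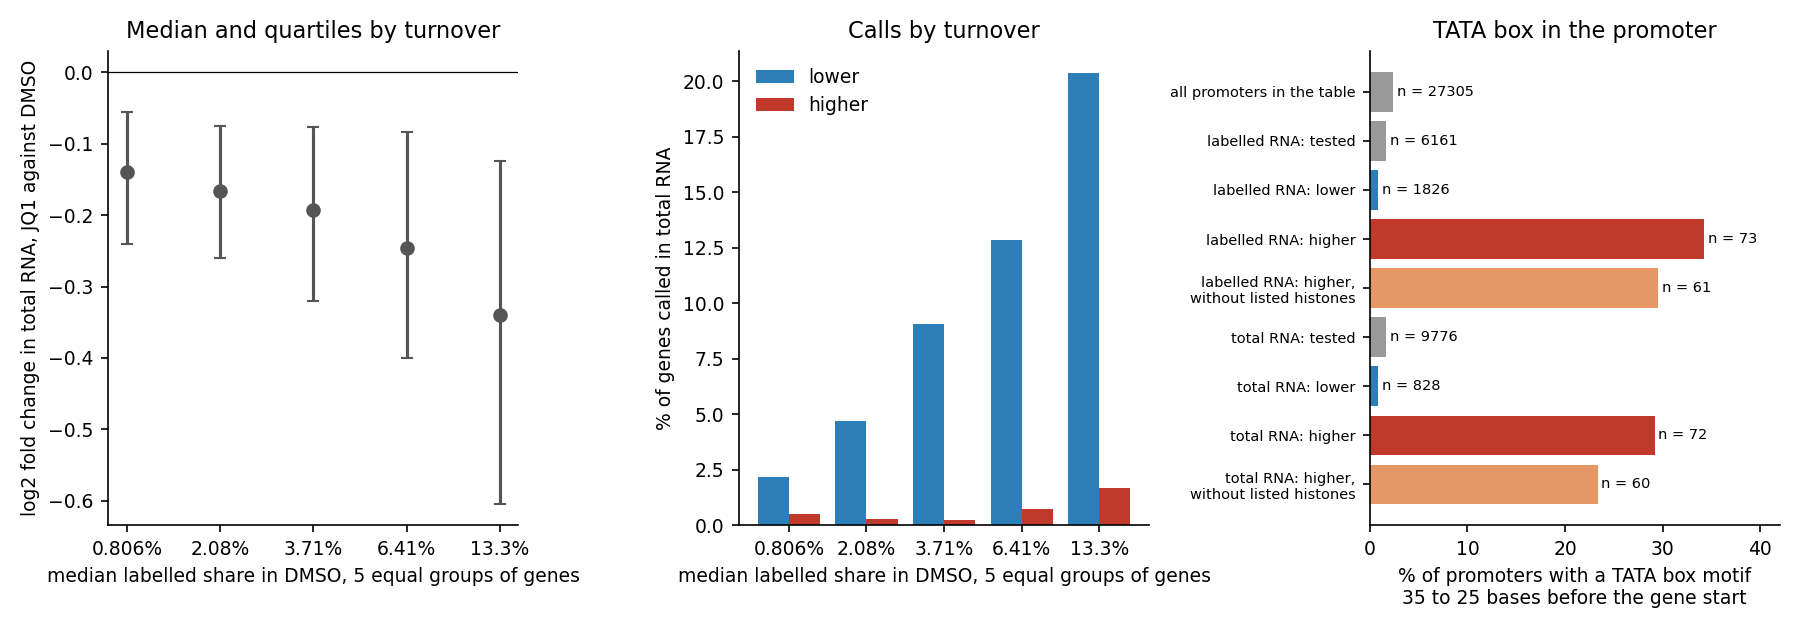
Left, the median log2 fold change in total RNA with quartiles as bars. Middle, the percent of genes called in total RNA, both for 5 equal groups of genes ordered by their labelled share in DMSO. Right, the percent of RefSeq promoters with a TATA box beginning 35 to 25 bases before the start, with the number of promoters as n. Falls in total RNA went from 2.16% to 20.4% of genes along the order, and the TATA share was 34.2% among labelled rises against 0.821% among falls.

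Falls in total RNA were more frequent among genes with a high labelled share, the percent of a gene's counts that were labelled, which is high for mRNAs that turn over fast. Genes with at least 50 total counts on average in DMSO were put in 5 equal groups by that share, with medians from 0.806% to 13.3%. The median change in total RNA went from -0.14 in the group with the lowest share, through -0.17, -0.19 and -0.25, to -0.34 in the highest. Falls made up 2.16%, 4.71%, 9.08%, 12.9% and 20.4% of the groups and rises 0.528%, 0.288%, 0.240%, 0.721% and 1.68%. The share comes from the DMSO libraries that also enter the contrast. MIR223HG, the host RNA of miR-223, had a DMSO labelled share of 41.7% and 30.6% and fell from 302 and 291 to 33 and 49 total counts (-3.07 ± 0.26, edgeR adjusted p = 6.85e-11). ZEB2, an EMT-linked repressor also active in blood cells, fell from 175 and 188 to 64 and 41 (-2.01 ± 0.28). CXCL3, a neutrophil chemokine, fell from 104 and 98 to 15 and 24 (-2.58 ± 0.41), and PPP1R3B, a glycogen-targeting phosphatase subunit, from 61 and 66 to 4 and 6 (-3.85 ± 0.62). The groups did not overlap in any of these, and each call held without any 1 library.

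The immediate early and short-lived mRNA list, whose members are normally induced fast and degraded fast, did not fall as a group. In labelled RNA 4 of 38 were lower (10.5%, against 28.6% of all genes) and 6 higher (15.8%, against 1.26%). The median was -0.12 against -0.85 for all genes (TMM 1 lower, 11 higher). In total RNA 5 of 43 were lower (11.6%, against 7.35%) and 10 higher (23.3%, against 0.837%). The median there was -0.08 (TMM 4 and 10). IER5, a heat shock factor regulator, had 219 and 198 labelled counts against 540 and 413 (0.97 ± 0.21) and 1092 and 1035 against 2985 and 2605 total counts (1.17 ± 0.11, edgeR adjusted p = 1.55e-09). MIDN, which carries short-lived nuclear proteins to the proteasome, had 3912 and 4332 against 8214 and 7912 total counts (0.75 ± 0.10). Its labelled rise (0.84) was lost without DMSO replicate 1 (adjusted p = 0.0737). EGR1, an early growth response factor, rose in total RNA from 373 and 281 to 987 and 815 counts (1.24 ± 0.21), and the AP-1 member JUNB from 589 and 642 to 1546 and 1327 (1.00 ± 0.14). JUNB did not pass in labelled RNA on the spike-in scale (0.23 ± 0.25) but did on the TMM scale (1.05). JUN passed in neither (-0.04 and 0.16). ZFP36L1, an mRNA decay factor of the same list, fell from 380 and 439 to 213 and 215 total counts (-1.16 ± 0.18). IER2 had 4428 and 3771 against 7845 and 5651 total counts (0.50 ± 0.12), a call lost without JQ1 replicate 1 and without DMSO replicate 2.

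snoRNA host transcripts, whose introns hold small nucleolar RNAs and whose spliced RNA is short-lived, had 8 of 23 lower (34.8%, against 28.6% of all genes) and 2 higher in labelled RNA (TMM 2 and 12). SNHG12 rose from 612 and 574 to 1270 and 1065 labelled counts (0.76 ± 0.16) and from 1703 and 1798 to 4052 and 3830 total counts (0.95 ± 0.10). SNHG19 rose in total RNA from 1180 and 1321 to 2232 and 2177 (0.60 ± 0.12). SNHG16 moved oppositely in labelled RNA, from 400 and 300 to 145 and 131 (-1.56 ± 0.21).

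MYC targets and ribosome biogenesis genes were lower in both measures. Of 49 tested in labelled RNA, 31 were lower and none higher (63.3%, against 28.6% of all genes, median -1.13), and 16 of 51 were lower in total RNA (31.4%, against 7.35%, median -0.26). On the TMM scale that split was 7 lower and 3 higher in labelled RNA and 5 and 2 in total RNA. A call also depends on counts: of the 2067 genes with at least 50 labelled counts on average in DMSO, 1096 were lower. No gene list was compared with genes of similar counts, so the part of power in such shares was not tested. SRM, spermidine synthase, had 215 and 178 labelled counts against 56 and 55 (-2.04 ± 0.27). CAD, the enzyme that starts pyrimidine synthesis, had 110 and 115 against 29 and 29 (-2.17 ± 0.34), and WDR43, a ribosome assembly factor, had 319 and 315 against 118 and 147 (-1.48 ± 0.22). In each the replicates were close and the groups did not overlap. DDX21, a nucleolar helicase, had 575 and 571 against 351 and 260 (-1.13 ± 0.18). Cytosolic ribosomal protein genes were lower in 46 of 76 labelled (60.5%, against 28.6% of all genes). Their median of -0.74 was smaller in size than that of all genes, and on the TMM scale 4 were lower and 8 higher. In total RNA 2 of 78 were lower (2.56%, against 7.35%). RPS24 had 727 and 794 labelled counts against 336 and 408 (-1.25 ± 0.17), with 140893 and 148756 against 148526 and 166083 total counts. The nuclear-encoded respiratory chain was lower in 34 of 69 labelled (49.3%, with TMM 2 lower and 1 higher) and in 1 of 73 in total RNA (1.37%). Mitochondrially encoded genes, which a separate polymerase transcribes, were lower in 2 of 11 (18.2%, median -0.23), whereas TMM scaling gave 6 rises and no fall.

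Cell cycle lists lay near the median of all genes. S phase and replication genes were lower in 14 of 48 labelled (29.2%, against 28.6% of all genes) and higher in 1 (median -0.73). G2 and mitosis genes were lower in 15 of 43 (34.9%, median -0.82), and G1 cyclins and kinases in 6 of 16 (37.5%, median -0.75). On the TMM scale these became 1 lower and 7 higher, 0 and 4, and 1 and 0. MCM3, a subunit of the replicative helicase, had 337 and 271 labelled counts against 106 and 148 (-1.47 ± 0.22), and CDK4, the kinase of G1 entry, had 78 and 58 against 20 and 26 (-1.77 ± 0.43). Neither passed in total RNA. E2F2, an activator of S phase genes, fell in total RNA from 608 and 697 to 310 and 341 counts (-1.22 ± 0.15), and CDT1, which licenses origins, from 2344 and 2302 to 1932 and 1887 (-0.50 ± 0.11).

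mRNA decay factors fell in 24 of 49 labelled, with a median of -1.39 that lay below that of all genes (TMM 6 lower, 2 higher), and in 7 of 54 in total RNA. DDX6, a helicase of decapping, had 158 and 162 labelled counts against 45 and 51 (-1.95 ± 0.30). EXOSC9, an exosome subunit, had 136 and 102 against 38 and 36 (-1.90 ± 0.33), and UPF2, of nonsense-mediated decay, 120 and 126 against 43 and 53 (-1.57 ± 0.33). In total RNA EXOSC9 and UPF2 fell by 0.53 and 0.66. DDX6 differed there by -0.57, a call lost without DMSO replicate 2. Chromatin regulators of the Polycomb, trithorax and SWI/SNF groups were lower in 16 of 47 labelled (34.0%, against 28.6% of all genes; TMM 5 lower, 1 higher). BRD9 and ARID2, SWI/SNF subunits, had 76 and 83 against 13 and 16 labelled counts (-2.66 ± 0.44) and 95 and 77 against 14 and 20 (-2.55 ± 0.42). SRSF4, a splicing factor, fell in total RNA from 1369 and 1358 to 1065 and 845 (-0.74 ± 0.12). Of 18 SR proteins and CLK kinases, 5 were lower in labelled RNA (27.8%; TMM 3 lower, 5 higher).

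Signalling and survival lists had few tested members. NF-kB and inflammation genes were lower in 4 of 11 labelled (36.4%, against 28.6% of all genes) and 6 of 17 in total RNA (35.3%, against 7.35%), with none higher. NFKBIA, the inhibitor induced by NF-kB, fell from 336 and 272 to 174 and 113 total counts (-1.30 ± 0.22). STAT5 and cytokine targets were lower in 6 of 13 labelled (46.2%; TMM 3 lower, 2 higher) and in 5 of 18 in total RNA (27.8%; TMM 1 lower, 1 higher). CISH, a STAT5-induced feedback inhibitor, had 121 and 122 labelled counts against 42 and 47 (-1.67 ± 0.36, -0.83 and not passing on the TMM scale). Its total RNA call (-0.91) was lost without either DMSO library. In the BCL2 family list 3 of 16 were lower in labelled RNA (18.75%, with TMM 2 lower and 1 higher). BCL2L1, which encodes BCL-XL, had 69 and 61 labelled counts against 9 and 15 (-2.64 ± 0.53). Its total counts were 1478 and 1559 against 1257 and 1485 (-0.37 ± 0.11), a call lost without JQ1 replicate 1 and without either DMSO library. MCL1, a short-lived survival protein gene, did not pass in either measure (0.08 and 0.09). AEN, a p53-induced nuclease, fell from 1900 and 1926 to 1141 and 1199 total counts (-0.93 ± 0.11). Of 14 p53 targets tested in labelled RNA, 3 were lower (21.4%, against 28.6% of all genes, with TMM 1 lower). The activity of p53 was not measured. HK1, the first enzyme of glycolysis, had 122 and 145 against 46 and 34 labelled counts (-1.96 ± 0.35), while the 7 of 23 glycolytic genes that were lower (30.4%; TMM 1 lower, 3 higher) are near the share of all genes.

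Of the remaining lists in labelled RNA, those with fewer falls than the 28.6% of all genes were cholesterol and fatty acid synthesis, with 4 of 27 lower and 1 higher (median -0.08; TMM 1 and 4), lysosome and autophagy, with 7 of 37 lower and 1 higher (median -0.66; TMM 0 and 3), and the integrated stress response, with 5 of 23 lower and 1 higher (TMM 1 and 6). Nucleotide, folate and polyamine synthesis was lower in 13 of 30 (43.3%) and higher in 1 (TMM 6 and 6), and the interferon response lower in 2 of 5 and higher in 1. The reference genes GAPDH and ACTB did not pass on the spike-in scale in labelled RNA (-0.15 ± 0.21 and -0.18 ± 0.21), whereas TMM scaling put them at 0.68 and 0.65 and both then passed as higher. TFRC, the transferrin receptor, did not pass in labelled or total RNA (-0.44 and -0.07).

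**Figure D4:**
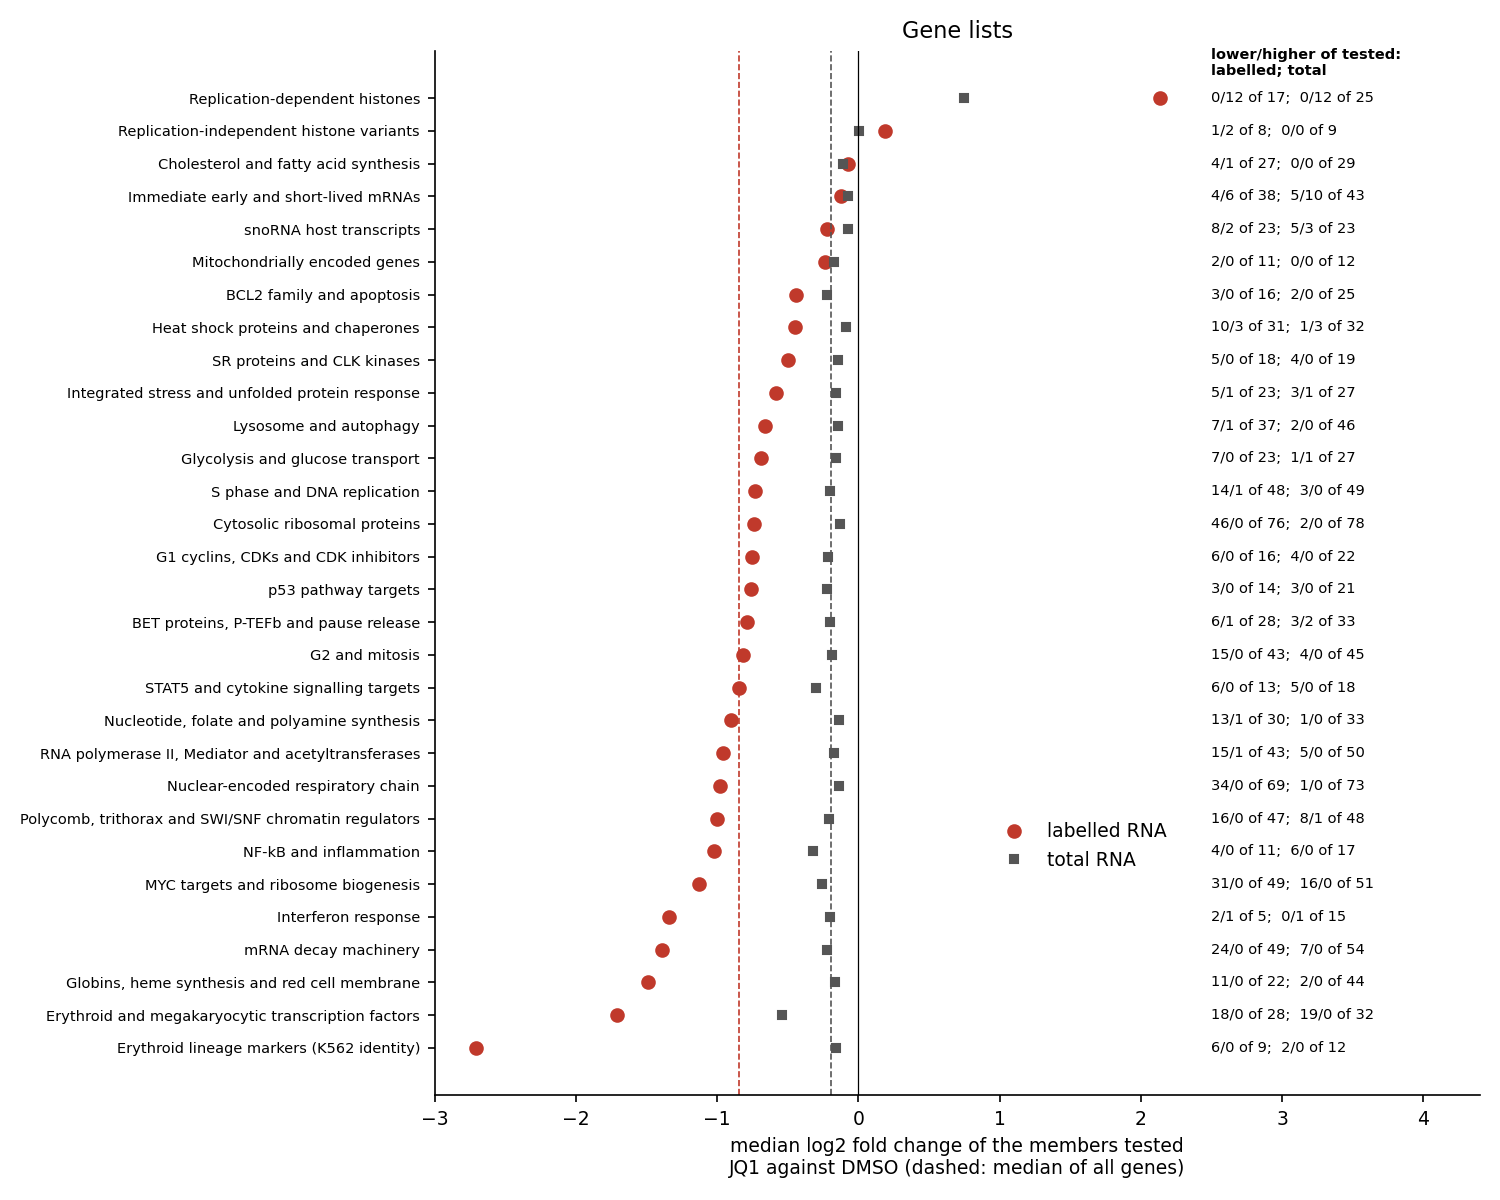
Each row is a gene list, with the median log2 fold change (JQ1 against DMSO, spike-in scale) of its tested members in labelled RNA (red circles) and total RNA (grey squares). Dashed lines are the medians of all tested genes (-0.85 and -0.19), and the numbers at right count members lower and higher of those tested. Histones lie far to the right, at 2.14 and 0.75. The 3 erythroid lists lie left of the line in labelled RNA, and of these only the transcription factors (-0.54) lie left of it in total RNA.

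The labelled share of each gene was tested as the ratio of labelled to unlabelled counts within a library, a measure that does not use the spike-in. It was lower with JQ1 in 1226 of 7996 genes (15.3%) and higher in 29 (0.363%), around a median log2 change of -0.66. These counts were 673 and 13 without JQ1 replicate 2, 310 and 6 without DMSO replicate 1 and 468 and 6 without DMSO replicate 2, and 974 and 6 without JQ1 replicate 1. DESeq2 gave 315 and 3, and no filter on low counts gave 11 higher. In KCNH2 the share was 4.12% and 3.75% in DMSO and 0.225% and 0.201% with JQ1 (-4.25 ± 0.34, edgeR adjusted p = 4.38e-19). In HBG2 it was 4.22% and 3.68% against 0.411% and 0.456% (-3.24 ± 0.24, adjusted p = 4.38e-19). Both show a lower labelled share without any external scale. Uptake of the label, which would also enter the share, was not measured. GATA2, ZBTB7A and MYC did not pass: GATA2 had 9.46% and 8.79% against 8.85% and 8.7%, and MYC 22.7% and 26.9% against 30.3% and 4.69%. In H4C14 the share was 62.5% and 72.7% in DMSO and 62.7% and 68.9% with JQ1, as labelled and total RNA rose alike. POLR2A had a share of 1.54% and 1.49% against 3.25% and 3.14% (1.10 ± 0.36), TUBB4B 4.91% and 5.24% against 8.45% and 8.3% (0.77 ± 0.25), and APLP2, an amyloid precursor relative, 2.29% and 2.49% against 5.04% and 3.94% (0.93 ± 0.29). Each of these rises was lost without at least 1 library.

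Calls were also set out by gene length and exon number. Among protein-coding genes tested in labelled RNA, 36.9% of the 260 genes up to 3000 bases long were lower and 4.62% higher, 25.7% and 0.0965% of the 1036 between 100000 and 300000 bases, and 8.27% and 0.752% of the 133 above 300000 bases, whose median was -0.38. This gradient in falls was not seen among genes with at least 50 labelled counts on average in DMSO. There falls made up 52.5%, 58.5%, 55.0%, 51.3% and 55.5% of the classes up to 300000 bases, in order of length, and 18.5% of the 27 longest genes. Genes with 1 exon were lower in 33.1% and higher in 8.09% of 136, and genes with over 16 exons in 25.6% and 0.385%. With at least 50 labelled counts falls were 44.2% of the 43 genes with 1 exon and 60.3% of genes with 2 exons. From there they declined with exon number, through 58.8%, 55.2% and 53.5%, to 48.6% for over 16 exons. Rises stayed at 6.98% for 1 exon and 0.559% for over 16 exons. In total RNA falls were 18.3% of single-exon genes and 3.90% of genes with over 16 exons. Classes differ in counts, and thus in power, and that part was not tested beyond the restriction to well-counted genes.

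A-485 inhibits CBP and p300, which write acetyl marks of the kind that BET proteins read, and JQ1 was compared with it directly in the same fit. The contrast is between the JQ1 and A-485 libraries, while the DMSO libraries enter the shared filter and estimate of spread. JQ1 was lower in 1984 of 7996 labelled genes (24.8%) and higher in 251 (3.14%), and in total RNA lower in 784 of 14572 (5.38%) and higher in 175 (1.2%). Labelled counts per 1000 spike-in counts were 217 ± 11.7 with A-485 (SD, n = 2). Without JQ1 replicate 2, A-485 replicate 1 and A-485 replicate 2 the labelled falls numbered 1234, 1241 and 889, and rises 167, 155 and 143, with 166 rises without JQ1 replicate 1. In total RNA, 277 genes were lower and 94 higher without A-485 replicate 1, and 317 lower and 105 higher without A-485 replicate 2.

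Many immediate early and short-lived mRNAs were higher with JQ1 than with A-485, 18 of 38 in labelled RNA and 22 of 43 in total RNA, and none was lower. On the TMM scale the labelled count was 23. ID3, an inhibitor of basic helix-loop-helix factors, had 138 and 151 labelled counts with JQ1 and 13 and 5 with A-485 (3.86 ± 0.45, edgeR adjusted p = 4.77e-20, and 4.70 without A-485 replicate 1), beside 148 and 183 with DMSO. Its relative ID2 had 172 and 153 against 22 and 18 (2.88 ± 0.34), and GADD45A, a stress-induced growth arrest gene, 85 and 102 against 4 and 7 (3.93 ± 0.59). For MIDN the JQ1 counts were 480 and 387 and the A-485 counts 53 and 57 (2.84 ± 0.25), and IER5 540 and 413 against 88 and 118 (2.08 ± 0.22). For ID2, ID3 and GADD45A the JQ1 libraries lay near DMSO and far above A-485, while MIDN and IER5 lay above DMSO with JQ1 and below it with A-485.

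Of 28 erythroid factors tested in labelled RNA, 5 were higher with JQ1 than with A-485 and 2 lower (TMM 8 and 0). NFE2 had 34 and 31 labelled counts with JQ1 and 7 and 5 with A-485 (2.28 ± 0.55), and GATA2 236 and 197 against 59 and 33 (2.10 ± 0.26, edgeR adjusted p = 1.42e-13). HBG2 had 82 and 98 against 37 and 40 (1.10 ± 0.27). MYC, MYB, TAL1, KLF1 and LMO2 did not pass, at 0.68 ± 0.51, 0.97 ± 0.66, 0.47 ± 0.54, 0.37 ± 0.75 and 0.11 ± 0.77, and errors of that size do not show that the drugs acted alike. LYL1 was higher with JQ1 (2.62 ± 0.85), a call lost without A-485 replicate 1 (adjusted p = 0.0979), and the change was 3.84 without A-485 replicate 2. Histones were higher with JQ1 in 14 of 17 labelled (against 3.14% of all genes) and 16 of 25 total (against 1.2%). The count filter can be met by the JQ1 libraries alone, so these counts hold for the tested members only. HEXIM1 was higher by 2.27 ± 0.30 and PPP1R10 by 1.45 ± 0.29 in labelled RNA.

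Several growth lists were lower with JQ1 on the spike-in scale, where 24.8% of all genes were. MYC targets and ribosome biogenesis were lower with JQ1 than with A-485 in 33 of 49 labelled, ribosomal proteins in 57 of 76 and S phase genes in 21 of 48, with none higher. The median over all labelled genes was -0.72 in this contrast and -0.02 with TMM, under which the 3 lists had 9, 20 and 5 lower and 2, 0 and 2 higher members. SRM had 56 and 55 labelled counts with JQ1 and 226 and 270 with A-485 (-2.29 ± 0.27, edgeR adjusted p = 4.09e-15), and CAD 29 and 29 against 168 and 181 (-2.71 ± 0.33). MED24 had 13 and 23 against 131 and 147 (-3.07 ± 0.39), DNPH1, a nucleotide hydrolase, 9 and 11 against 106 and 131 (-3.68 ± 0.48), and E2F2 15 and 8 against 88 and 81 (-3.0 ± 0.48). In these 5 genes the JQ1 libraries lay below those of both A-485 and DMSO. ZMYND8, low with both drugs, was lower with JQ1 (28 and 30 against 90 and 72, -1.61 ± 0.32).

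**Figure D5:**
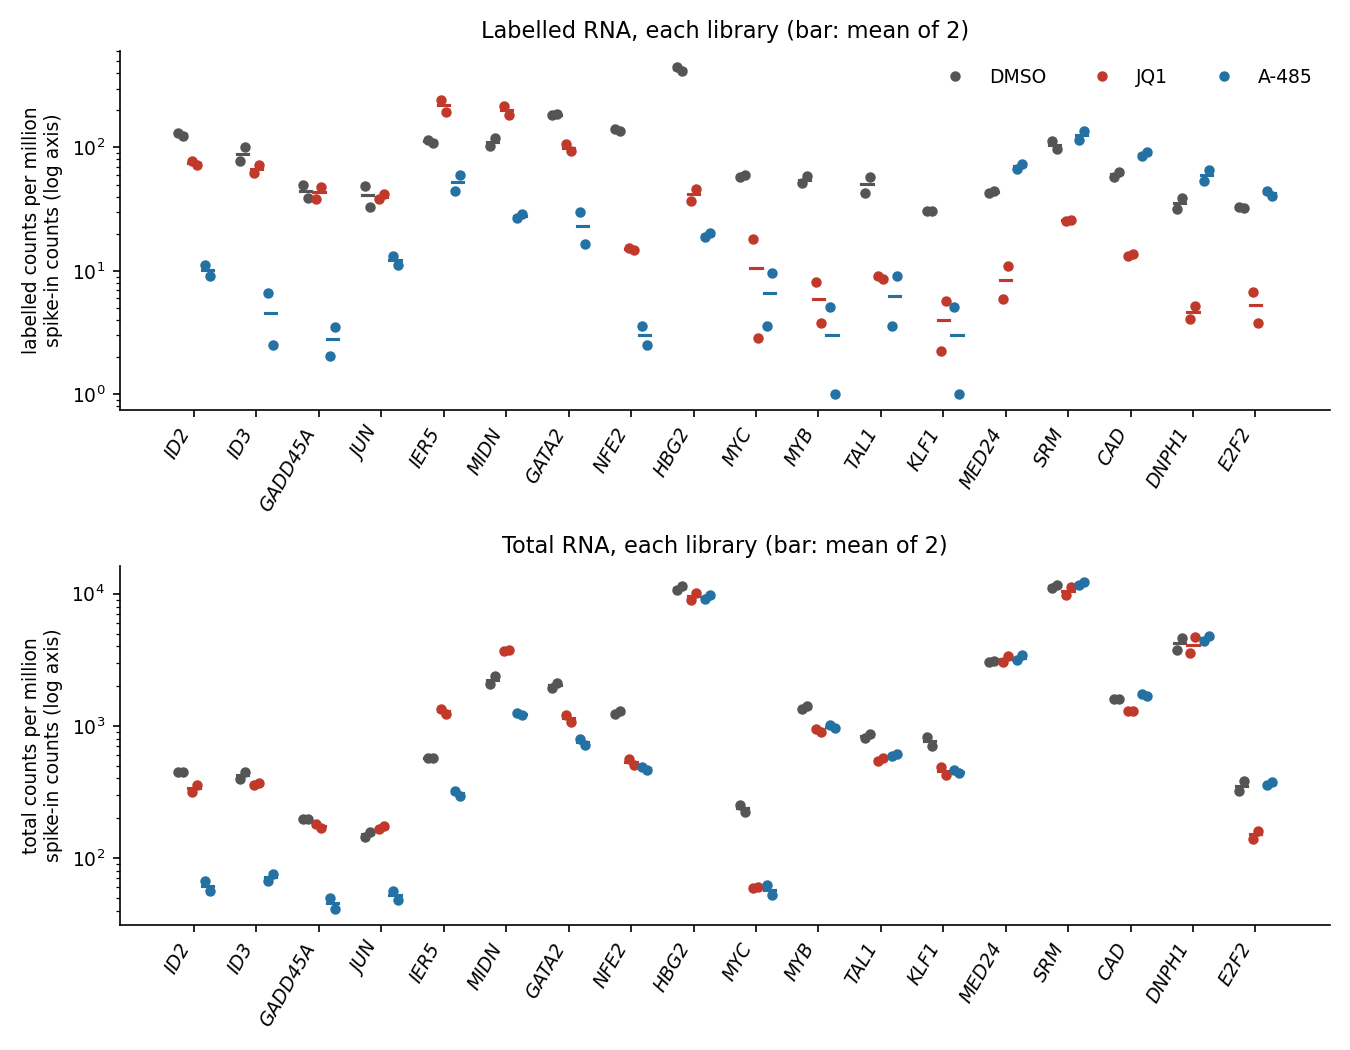
Dots are single libraries and bars the mean of 2, in labelled (top) or total (bottom) counts per 1000000 spike-in counts on a log axis, for DMSO (grey), JQ1 (red) and A-485 (blue). ID2, ID3 and GADD45A are low with A-485 and near DMSO with JQ1, and MED24, SRM, CAD, DNPH1 and E2F2 are low in labelled RNA with JQ1 and not with A-485.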

How the data were processed

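SLAM-seq libraries of K562 cells came as 3 tables of raw read counts per gene, deposited by the authors with no normalization: total, labelled (T-to-C) and Drosophila spike-in counts. Per the labels' protocols, alkylated RNA received 5% S2 RNA and was made into QuantSeq 3′ libraries. Per the submitters' processing notes, bcl2fastq 2.17.1.14, Trim Galore 0.6.5, bedtools, hg38 and dm6 were used. Aligner, conversion caller and strand setting: not given in the sources used here. Groups came from sample titles.

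Fits were made in R 4.3.3 with the robust two-sided quasi-likelihood test of edgeR 4.0.16. Library sizes were spike-in totals, all 10 libraries shared 1 fit (5 residual degrees of freedom), and a gene needed 10 counts in 2 or more libraries. The share was fitted from labelled and unlabelled counts with library terms. Alternatives were TMM, human totals, DESeq2 1.42.0, no filter, the 2 groups alone, a replicate block, no actinomycin D group and leaving out each library. Replicates differed by more than sampling noise (chi-square per degree of freedom 2.48 to 12.5). Of JQ1, DMSO and A-485, the JQ1 pair differed most in both measures. In total RNA the values were 12.5, 5.16 and 4.13, and in labelled RNA 3.06, 2.48 and 2.64, in that order. On data simulated for JQ1 against DMSO, with 100 genes changed at each fold, 2-fold changes were found in 8% of cases and 4-fold changes in 88% for labelled RNA (7686 genes), 91% and 100% for total RNA (14266 genes), and 24% and 91% for the share (7664 genes). The changed genes were drawn from better-counted genes only. Far more genes passed in the data, which makes the adjusted threshold easier to pass, so these rates are not those of the real comparison.

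Names and positions came from GENCODE 29 (55838 of 59204 identifiers), promoters from RefSeq GRCh38.p14. The experiment, the gene lists (1134 of 1138 symbols found) and the tests were chosen with earlier results of these data known. Named genes were a panel, the 12 largest called changes per direction with at least 50 mean counts and libraries that did not overlap, the 4 called list members per direction with the highest counts, and 6 per direction against A-485. The text uses part of these.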

Additional observations from a re-analysis of the deposited data

How the results depend on the processing

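Among single genes, GAPDH and ACTB turned from -0.15 and -0.18 to 0.68 and 0.65 in labelled RNA with TMM and to 0.55 and 0.51 with the size factors of DESeq2, where the scale itself moved by that amount. HBZ in total RNA, uncalled at 0.00, ranged from -0.39 (called, without JQ1 replicate 2) to 0.31 when 1 library was left out, and the cause was not tested. Taking only spike-in genes with at least 100 counts in every library moved the labelled levels to 267 (DMSO) and 172 (JQ1) per 1000 spike-in counts and the total levels to 9.64 and 8.77 per spike-in count, with the percent of DMSO at 64.6 and 90.9. For labelled RNA against DMSO, 415 genes were lower and 444 higher with TMM, and 406 and 327 with DESeq2 on its own size factors. Leaving out 1 library gave 1049 to 1675 lower and 51 to 61 higher. For total RNA, TMM gave 288 and 214, human totals 420 lower, and DESeq2 282 and 211, while leaving out 1 library gave 277 to 973 lower and 64 to 129 higher. For the labelled share, no filter gave 11 higher, DESeq2 315 lower and 3 higher, and leaving out 1 library 310 to 974 lower and 6 to 13 higher. Against A-485 in labelled RNA, TMM gave 434 and 673, DESeq2 323 and 572, and leaving out 1 library 889 to 1441 and 143 to 167. Against A-485 in total RNA, TMM gave 339 and 278, human totals 431 lower, DESeq2 337 and 276, and leaving out 1 library 277 to 662 and 94 to 173. Deviations of same-numbered libraries correlated at 0.0215 in labelled RNA and 0.0724 in total RNA. Over only 2 numbers, that cannot settle whether the replicate numbers pair the libraries. With the numbers as a replicate block, 2018 lower and 92 higher genes passed in labelled RNA and 1972 and 158 in total RNA. The block gave 1106 and 24 for the share, and 1265 were lower in total RNA against A-485. Over the named genes, gene classes and library levels in all settings, 3401 values kept direction and call, 222 lost the call, 46 gained it, 5 turned and 4 moved.

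Labelled counts limit the precision, and a gene that did not pass is not shown to be unchanged. Scaling decides the sign of small labelled changes. Cell numbers, RNA per cell and replicate origin were not measured or given.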
